A study of Mus musculus with 4 samples.

Results

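The 10 noncoding RNA genes described here are Malat1, Neat1, Rmrp, Rpph1, Rn7sk, Terc, Gas5, Pvt1, Mir17hg and Firre. They were taken by symbol from a table of 54842 gene identifiers and 1562 repeat families, as noncoding RNAs that are abundant or known as regulators. The rule itself is a list of names, and it was written with earlier results of these data known. The 10 symbols stand for 11 identifiers, since Rmrp is listed under 2 that overlap almost entirely. The study examined how mouse heterochromatin responds to altered DNA topology, and these libraries compared mouse embryonic fibroblasts (MEF cells) that were wild-type (wt) with MEF cells lacking Top2β, the topoisomerase that cuts both strands of DNA and passes another duplex through the break. After removal of ribosomal RNA, total RNA was sequenced in 2 libraries per genotype, from untreated cells grown in high-glucose DMEM. The Top2β-null cells were a gift from other laboratories, and whether the wt cells share their origin is not stated, so origin and genotype cannot be told apart. The labels do not say that replicates came from separate cultures or animals, and p-values therefore measure only the spread between these libraries.

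Noncoding RNAs carry out their function without being translated, and different RNA polymerases make them. RNA polymerase III makes Rn7sk, Rmrp and Rpph1: the 7SK RNA holds the elongation factor P-TEFb in an inactive particle, while Rmrp and Rpph1 are the RNA subunits of RNase MRP and RNase P, which process ribosomal RNA and transfer RNA precursors. RNA polymerase II makes the others: Terc is the template RNA of telomerase, Malat1 sits in nuclear speckles and Neat1 is the scaffold of paraspeckles. Gas5 carries small nucleolar RNAs (snoRNAs) in its introns, Mir17hg is the host of the miR-17-92 cluster of microRNAs, Pvt1 lies next to Myc, and Firre is an X-linked RNA that binds the nuclear matrix protein Hnrnpu.

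The structural RNAs are short enough to be read directly, and capitals in their sequences mark the stretches named below. Sequences were taken from GENCODE release M21 and are given 5′ to 3′ on GRCm38. For Rmrp (chr4:43492783-43493063, minus strand) all 281 bases are shown, with capitals for bases 41 to 164, the 124 bases that also lie in an exon of Ccdc107 on the opposite strand. For Rpph1 (chr14:50807449-50807767, minus strand) the first 300 of 319 bases are shown, with capitals for bases 36 to 268, the 233 bases shared with an exon of Ccnb1ip1 on the same strand.
Rmrp: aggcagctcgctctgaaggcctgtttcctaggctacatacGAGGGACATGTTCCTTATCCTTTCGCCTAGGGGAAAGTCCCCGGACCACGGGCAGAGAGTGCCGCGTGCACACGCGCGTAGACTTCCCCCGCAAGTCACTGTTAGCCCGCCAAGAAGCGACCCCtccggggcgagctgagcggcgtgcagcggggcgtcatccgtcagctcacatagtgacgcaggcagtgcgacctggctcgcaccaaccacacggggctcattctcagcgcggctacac
Rpph1: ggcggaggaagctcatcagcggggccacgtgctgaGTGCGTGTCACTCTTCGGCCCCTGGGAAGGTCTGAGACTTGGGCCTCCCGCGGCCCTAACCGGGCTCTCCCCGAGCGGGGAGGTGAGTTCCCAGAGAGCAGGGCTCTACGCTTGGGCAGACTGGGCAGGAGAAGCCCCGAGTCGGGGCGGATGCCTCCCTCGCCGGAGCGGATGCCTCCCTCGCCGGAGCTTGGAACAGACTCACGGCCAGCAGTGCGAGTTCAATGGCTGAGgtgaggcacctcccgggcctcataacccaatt

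For Rn7sk (chr9:78175303-78175633, minus strand) the first 120 of 331 bases are shown. Capitals mark GATC, the DNA letters of the GAUC elements of the 5′ hairpin to which Hexim proteins bind. They start at bases 13, 42 and 64. The letters were searched on the transcript strand alone, and 0.521% of the 137364 annotated transcripts of at least 120 bases hold 3 or more of them in their first 120 bases. For Terc (chr3:96414437-96414859, minus strand) the first 100 of 423 bases are shown. Capitals mark CTAACCCT at bases 29 to 36, the template from which telomerase copies the telomere repeat. Those letters occur on the transcript strand in the first 100 bases of 0.111% of 139316 annotated transcripts. The GC content was 63.7% for Rmrp, 67.1% for Rpph1, 58.0% for Rn7sk and 67.1% for Terc. The longest run of bases shared by Rmrp and Rpph1, which are related in function and bind nearly the same proteins, was 9 bases long.
Rn7sk: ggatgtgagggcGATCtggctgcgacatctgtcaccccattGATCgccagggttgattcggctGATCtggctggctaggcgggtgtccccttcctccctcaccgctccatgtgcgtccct
Terc: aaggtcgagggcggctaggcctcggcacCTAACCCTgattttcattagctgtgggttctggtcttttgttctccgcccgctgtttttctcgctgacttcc

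Mir17hg (chr14:115042879-115046727, plus strand) encodes 6 hairpins, and the mature microRNAs they are best known for fall into 4 groups by seed, the stretch from base 2 to base 8 that pairs with target messenger RNAs. The sequences come from RefSeq (GRCm38.p6) and the seed is in capitals. miR-17-5p and miR-20a-5p have the seed AAAGUGC, miR-19a-3p and miR-19b-3p have GUGCAAA, and the other two have seeds of their own within the cluster.
miR-17-5p: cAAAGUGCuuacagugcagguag
miR-20a-5p: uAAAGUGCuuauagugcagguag
miR-19a-3p: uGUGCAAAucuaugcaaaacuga
miR-19b-3p: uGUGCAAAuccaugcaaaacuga
miR-18a-5p: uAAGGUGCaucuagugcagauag
miR-92a-3p: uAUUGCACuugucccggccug

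The total count of a library ranged from 133116830 to 149647278, and counts below are normalized counts, scaled to a common library size by edgeR's TMM factors. Top2b itself had 18259 and 18465 normalized counts in wt, against 3879 and 3789 in Top2β-null cells (log2 fold change −2.26 ± 0.027 (SE)). Of 11 fibroblast markers, 10 had a mean over 100, and their sum was 1312240 to 1336220 in wt and 893322 to 898230 in Top2β-null cells. Of 8 leukocyte markers, 2 had a mean over 100 and 1 was at 0 in every library, and their sum was 2420 to 2501 in wt and 1351 to 1356 in Top2β-null cells. Sums of neural markers were 5513 to 5598 and 7397 to 7704, those of endothelial markers 162 to 165 and 252 to 258, and those of epithelial markers 71.5 to 71.7 and 22.8 to 24.8, for wt and then Top2β-null cells. The part of these differences in the results below was not tested, and in bulk RNA fewer cells of a type and less RNA per cell cannot be told apart.

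All 10 genes passed the filter on low counts, and together the RNAs held between 0.897% and 0.991% of all counts in each library, with Rmrp counted once. A gene was called where its adjusted p was under 0.05, its mean exceeded 100 normalized counts and it changed by more than 1 on the log2 scale, up or down. By this rule 0 of the 10 genes were called higher and 0 were called lower in Top2β-null MEF cells, where 5.27% of the 26566 features tested were called higher and 4.97% were called lower. By edgeR's adjusted p alone, 1 gene rose (Rn7sk, against 32.5% of all features) and 6 fell (Mir17hg, Rmrp, Pvt1, Neat1, Firre and Gas5, against 32.5% of all features). Malat1, Rpph1 and Terc did not pass. In the related lists below, genes are said to rise or fall where their adjusted p over all features was below 0.05. The fall of Gas5 and of Firre did not pass when libraries were scaled to their total counts. For each of the 10 genes the values of the wt libraries did not overlap those of the Top2β-null libraries, 2 being higher and 8 lower, as was so for 80.5% of all features tested. The median log2 fold change was −0.15 over the 10 genes and 0.0027 over all features, and the median absolute value was 0.26 against 0.39. With 2 libraries in each group the smallest p of an exact permutation test is 0.33, so that tests rest on the spread that edgeR shares across features.

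**Figure D1:**
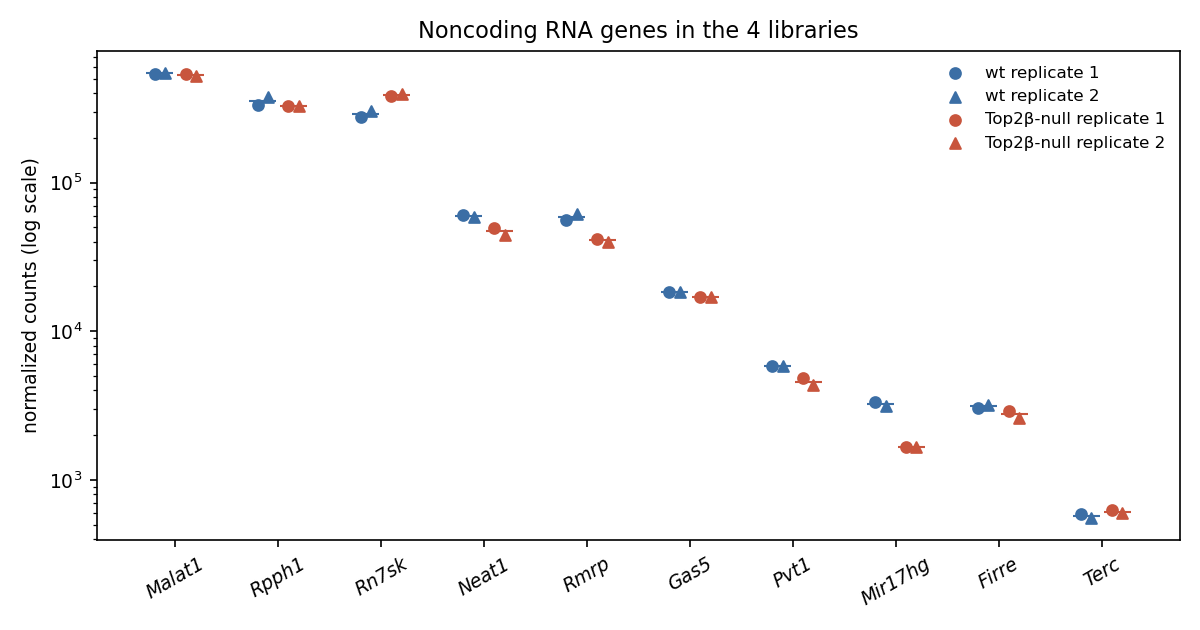
Normalized counts (log axis) of the 10 noncoding RNA genes in each wt (blue) and Top2β-null (red) library, ordered by mean count in wt MEF cells, with a line at each group mean. The distance between genotypes is widest for Mir17hg, with 3318 and 3165 in wt and 1656 and 1671 in Top2β-null cells, and small for Malat1.

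**Figure D2:**
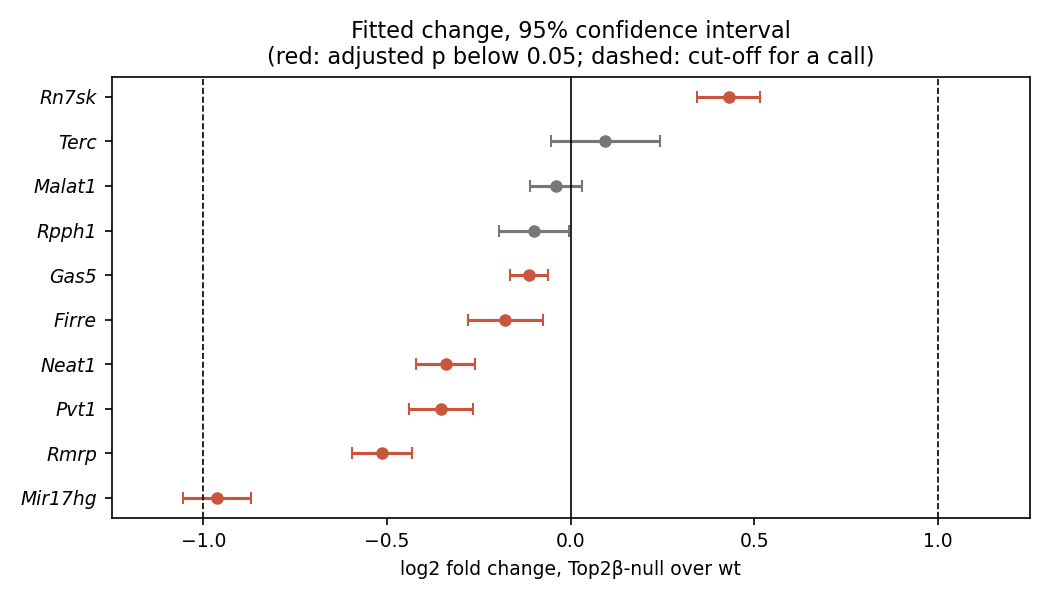
Fitted log2 fold change of each gene, Top2β-null over wt, with its 95% confidence interval, and dashed lines at −1 and 1. Red points have an adjusted p below 0.05, and the interval of Mir17hg (−1.06 to −0.87) is the single one that reaches −1.

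Levels of different genes were compared per kilobase of exon. Among 25066 genes with a length, Rpph1 ranked 2, Rn7sk 3, Rmrp 20 and Malat1 50 in wt MEF cells. The levels per kilobase in wt MEF cells were 1103100 ± 96093 for Rpph1 and 869685 ± 60027 for Rn7sk (SD, n = 2), and in Top2β-null MEF cells they were 1028900 ± 4380 and 1172120 ± 14412, so that the order of these genes was the opposite one. Rmrp followed with 208141 ± 14193 per kilobase in wt and 145721 ± 4867 in Top2β-null cells. Malat1 had 77617 ± 677 and 75462 ± 1364 per kilobase. A gap of more than 10-fold separated these 4 RNAs from the rest. The levels per kilobase of Gas5, Neat1 and Terc in wt MEF cells were 4876 ± 16.8, 2861 ± 62.7 and 1352 ± 48.6, and their order was the same in Top2β-null MEF cells (4509 ± 1.2, 2260 ± 162 and 1443 ± 50.7). The length used for Neat1 was 20771 bases, the full span of the gene. A shorter form of Neat1 was not counted separately, so its place below Gas5 rests on that length. Mir17hg and Pvt1 were neighbours with 917 ± 30.5 and 834 ± 8.7 per kilobase in wt, whereas Pvt1 (654 ± 50.5) lay above Mir17hg (470 ± 3.0) in Top2β-null MEF cells. The order of this pair in wt MEF cells depended on the length used, since division by the longest transcript gave 1758 for Pvt1. Firre had 378 ± 10.0 and 335 ± 24.7 per kilobase, the lowest level in both genotypes by this length. With the longest transcript as the length it had 562 and 497, and Mir17hg (470) was lowest in Top2β-null MEF cells.

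Rn7sk was the member that rose. The wt libraries held 273816 and 301915 normalized counts of Rn7sk, and the Top2β-null libraries 384599 and 391345. Both Top2β-null values lay above both wt values by more than the distance between replicates. The mean was 1.35-fold higher in Top2β-null MEF cells (log2 fold change 0.43 ± 0.040 (SE), edgeR adjusted p = 9.6e-08). The repeat family 7SK, which collects the scattered genomic copies of the same RNA (the GATC-bearing sequence above), had 261385 and 272554 normalized counts in wt and 360823 and 354853 in Top2β-null cells. Its log2 fold change was 0.42 ± 0.033 (SE, edgeR adjusted p = 8.4e-09). The family's count was between 0.90 and 0.95 times that of Rn7sk in every library, and how reads were divided between the gene and the family is not stated, so the 2 values cannot be taken as independent.

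Transcripts for proteins of the 7SK particle and P-TEFb moved in both directions. Of 7 genes tested, 3 rose and 4 fell by adjusted p, against 32.5% of all features each way, and 0 were called. The median log2 fold change was −0.20 (all features, 0.0027), and −0.13 with scaling to total counts. Mepce, the enzyme that caps 7SK RNA, had 5677 and 5590 normalized counts in wt and 8580 and 8937 in Top2β-null cells (log2 fold change 0.64). Ccnt2, a cyclin partner of Cdk9, rose by 0.23 on the log2 scale. Hexim1, which inhibits Cdk9 when bound to 7SK RNA, had 2833 and 2738 normalized counts in wt and 1806 and 1836 in Top2β-null cells, and its log2 fold change was −0.61. Its relative Hexim2 had a log2 fold change of −0.59.

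Rmrp fell. Rmrp had 55667 and 61308 normalized counts in the wt replicates, against 41915 and 39979 in the Top2β-null replicates. The groups were separated by more than the distance between the wt replicates. The mean was 1.43-fold lower in Top2β-null MEF cells (log2 fold change −0.51 ± 0.038 (SE), edgeR adjusted p = 5.3e-09). The 2 Rmrp identifiers differed by at most 1 count in a library. Ccdc107, which shares the bases in capitals in the Rmrp sequence but lies on the opposite strand, exceeded Rmrp by 695 to 1409 counts, which is 1.69% to 2.30% of its own count. Its normalized counts of 56980 and 62669 in wt and 42635 and 40705 in Top2β-null cells were therefore almost those of Rmrp. Whether reads were counted by strand is not stated, and the counts of Rmrp and Ccdc107 cannot be separated. With the 2 identifiers and Ccdc107 summed into 1 feature, the log2 fold change was −0.52.

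Rpph1 did not pass the test. In wt MEF cells 330213 and 373564 normalized counts were found for Rpph1, whereas Top2β-null cells gave 329208 and 327232. The lower wt library lay next to both Top2β-null libraries, and the higher one stood apart. The log2 fold change was −0.10 ± 0.045 (SE), with a 95% confidence interval of −0.20 to −0.0053 and an edgeR adjusted p of 0.0605. The value rested on the wt libraries: it was −0.19 without wt replicate 1 (adjusted p = 9.0e-07) and −0.0087 without wt replicate 2 (adjusted p = 0.856). Without Top2β-null replicate 1 it was −0.084 (adjusted p = 0.0198) and without Top2β-null replicate 2 it was −0.093 (adjusted p = 0.0080). Ccnb1ip1, whose exon contains the bases in capitals in the Rpph1 sequence, exceeded Rpph1 by 1 to 7 counts in each library, so the count listed for Ccnb1ip1 is in effect that of Rpph1.

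Ratios within a library need no scaling between libraries. The log2 ratio of Rmrp to Rpph1 was −2.57 and −2.61 in wt and −2.97 and −3.03 in Top2β-null cells, −0.42 as the mean difference of Top2β-null minus wt. The log2 ratio of Rn7sk to Rpph1 was −0.27 and −0.31 in wt and 0.22 and 0.26 in Top2β-null cells, with a Top2β-null minus wt difference of 0.53. In both ratios the replicates lay within 0.1 of each other and the genotypes did not overlap. The 3 RNA polymerase III products thus did not move by a common amount: Rn7sk rose, Rmrp fell, and Rpph1 lay between them.

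Protein subunits of RNase P and RNase MRP mostly serve both enzymes. Of 10 tested genes, 2 rose, 7 fell and 1 did not pass by adjusted p, where 32.5% of all features rose and 32.5% fell, and 0 were called. The median log2 fold change was −0.23, and with scaling to total counts it was −0.16 with 3 genes up and 6 down. Rpp21, a subunit of RNase P, had 935 and 1067 normalized counts in wt and 576 and 538 in Top2β-null cells (log2 fold change −0.85), and Rpp40 had a log2 fold change of −0.66. Pop4 went the other way, from 1801 and 1772 to 3186 and 3343 normalized counts (log2 fold change 0.87), as did Pop7 with a log2 fold change of 0.46. Rpp25 was too low to be tested. Among the 29 subunits and factors of RNA polymerase III and the snRNA activating complex, 7 rose, 17 fell and 5 did not pass, and the median was −0.16 (9, 14 and 6 genes and −0.090 with scaling to total counts). Polr3d, a subunit of RNA polymerase III, was the one called, with 5167 and 5352 normalized counts in wt and 2126 and 2179 in Top2β-null cells (log2 fold change −1.29). Maf1, the repressor of RNA polymerase III, had a log2 fold change of −0.89, while Gtf3a, the factor for 5S genes, rose by 0.54 and Polr3e rose by 0.42 on the log2 scale.

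Terc had the lowest count of the 10 genes. The wt libraries held 586 and 557 normalized counts of Terc, and the Top2β-null libraries 626 and 595. The lowest Top2β-null value lay just above the highest wt value. The log2 fold change was 0.094 ± 0.070 (SE), with a 95% confidence interval of −0.054 to 0.24 and an edgeR adjusted p of 0.253, and it was 0.16 with an adjusted p of 0.0482 when libraries were scaled to their total counts. Without wt replicate 2 it was 0.057 (adjusted p = 0.636). A change as large as the cut-off of 1 lies outside this interval. The transcript of Tert, the protein that reverse-transcribes from Terc, had 19.2 and 15.5 normalized counts in wt and 968 and 939 in Top2β-null cells (log2 fold change 5.78, called). Wrap53, which brings the RNA to Cajal bodies, fell from 3343 and 3332 to 959 and 925 (log2 fold change −1.83, called). Of the 8 genes of the telomerase particle, 4 rose, 3 fell and 1 did not pass by adjusted p, against 32.5% of all features each way. Among them 1 was called higher and 1 lower, against 5.27% and 4.97% of all features. The median moved from 0.091 to 0.16 with scaling to total counts. Dkc1, the pseudouridine synthase that stabilises Terc, had a log2 fold change of −0.54, and Naf1, an assembly factor, rose by 0.29 on the log2 scale.

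Malat1 had the largest count of the 10 genes, 0.376% ± 0.0019 of all counts in wt and 0.384% ± 0.0049 in Top2β-null cells (SD, n = 2). Malat1 had 538659 and 545345 normalized counts in the wt replicates, against 533687 and 520214 in the Top2β-null replicates. The gap between the genotypes was smaller than the distance between replicates in either group. The log2 fold change was −0.041 ± 0.033 (SE) with a 95% confidence interval of −0.11 to 0.030 (edgeR adjusted p = 0.298), and its sign turned to 0.029 (adjusted p = 0.483) when libraries were scaled to their total counts. Without Top2β-null replicate 2 it was −0.019 (adjusted p = 0.644). Gm37376, on the opposite strand within Malat1 (chr19:5795690-5802672, minus strand), had 16711 and 16561 normalized counts in wt and 17554 and 17233 in Top2β-null cells. Since strand-specific counting is not stated, these reads cannot be told from those of Malat1.

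Neat1 (chr19:5824708-5845478, minus strand), the neighbour of Malat1, fell. In wt MEF cells 60349 and 58506 normalized counts were found for Neat1, whereas Top2β-null cells gave 49322 and 44569. Both Top2β-null values lay below both wt values, and the Top2β-null replicates were farther apart than the wt replicates. The mean was 1.27-fold lower in Top2β-null MEF cells (log2 fold change −0.34 ± 0.038 (SE), edgeR adjusted p = 7.5e-07). The log2 ratio of Neat1 to Malat1 was −3.16 and −3.22 in wt and −3.44 and −3.54 in Top2β-null cells, a Top2β-null minus wt difference of −0.30. Within Neat1, 3 short annotated RNAs, the last of which starts 1041 bases from its 5′ end, all fell, against 32.5% of all features. Their log2 fold changes were −0.67 to −0.68. The 5′ end is common to the short and the long form of Neat1. Gm27533, the best covered of the 3, had 1316 and 1379 normalized counts in wt and 842 and 838 in Top2β-null cells (log2 fold change −0.68 ± 0.055 (SE)). Its 95% confidence interval does not reach that of the whole gene, although these reads may also be counted in Neat1. The difference between the 5′ end and the whole gene was not tested.

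Paraspeckle proteins bind Neat1. Of 16 genes tested, 3 rose, 9 fell and 4 did not pass by adjusted p, where 32.5% of all features rose and 32.5% fell, and 0 were called. The median log2 fold change was −0.085, close in size to the shift that scaling to total counts gave, under which it was −0.015 with 5 genes up and 6 down. Sfpq, one of the proteins without which paraspeckles do not form, had 56861 and 55880 normalized counts in wt and 61837 and 63380 in Top2β-null cells (log2 fold change 0.15). Nudt21, a factor in 3′ end processing, rose by 0.29 on the log2 scale. The log2 fold change was −0.59 for Hnrnph3 and −0.38 for Dazap1.

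**Figure D3:**
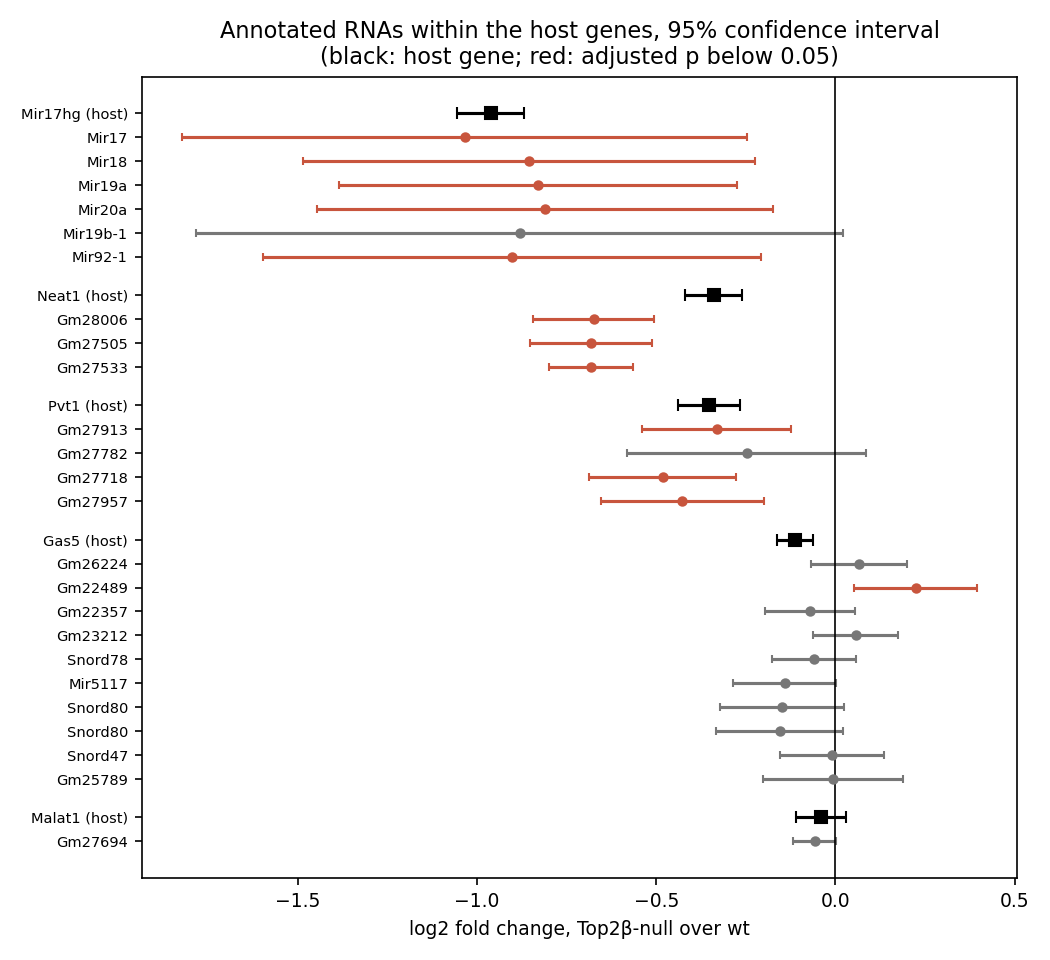
Fitted log2 fold change, Top2β-null over wt, with 95% confidence interval, of 5 host genes (black squares) and of the short RNAs annotated within them, ordered by position from the 5′ end of the host. Red points have an adjusted p below 0.05. The hairpins of Mir17hg lie around the host with wide intervals, the 5′ pieces of Neat1 lie below it, and most pieces of Gas5 are near 0.

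Gas5 (chr1:161034422-161038539, plus strand), which accumulates in growth-arrested cells and carries snoRNAs, fell by a small amount, and this fall was not past the threshold when libraries were scaled to their total counts (log2 fold change −0.043, adjusted p = 0.145). The wt libraries held 18379 and 18289 normalized counts of Gas5, and the Top2β-null libraries 16950 and 16956. Replicates were close and the groups stood apart. The log2 fold change was −0.11 ± 0.024 (SE, edgeR adjusted p = 6.0e-04), a mean 1.08-fold lower. Of 9 snoRNA genes annotated within Gas5, with Snord80 listed under 2 identifiers, 1 rose and 8 did not pass, against 32.5% of all features each way. Their log2 fold changes were −0.16 to 0.22. The one that rose, Gm22489, had 454 and 426 normalized counts in wt and 488 and 539 in Top2β-null cells. Snord78, another of them, had 1145 and 1097 in wt and 1098 and 1053 in Top2β-null cells, and the genotypes overlapped. Reads of the spliced snoRNAs and of unspliced Gas5 RNA that contains them were not distinguished.

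Other genes also host snoRNAs. Of 15 tested, 2 rose, 11 fell and 2 did not pass by adjusted p, where 32.5% of all features rose and 32.5% fell. The median log2 fold change was −0.22, and with scaling to total counts it was −0.15 with 4 genes up and 10 down. Snhg18 was the one called, with 1651 and 1613 normalized counts in wt and 640 and 703 in Top2β-null cells (log2 fold change −1.28). Zfas1 had 12827 and 12823 normalized counts in wt and 7896 and 7979 in Top2β-null cells (log2 fold change −0.69). Snhg9 and Snhg14 rose by 0.48 and 0.16 on the log2 scale.

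Mir17hg showed the largest fitted change of the 10 genes. Mir17hg had 3318 and 3165 normalized counts in the wt replicates, against 1656 and 1671 in the Top2β-null replicates. The wt values were close to each other and far above both Top2β-null values. The mean was 1.95-fold lower in Top2β-null MEF cells (log2 fold change −0.96 ± 0.044 (SE), edgeR adjusted p = 9.5e-12), just short of the cut-off of 1. The log2 fold change stayed between −0.996 and −0.89 in each alternative fit in which it was followed. Mir17hg lies on chromosome 14, as does Top2b, 98.6 Mb away. Rpph1, which did not pass, lies on the same chromosome 34.4 Mb from Top2b.

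The 6 hairpins of the cluster had few reads, 9 to 60 counts in a library, in libraries that were not made for small RNAs. Their log2 fold changes ranged from −1.04 to −0.81, 5 fell by adjusted p, against 32.5% of all features, and 1 (Mir19b-1) did not pass. Mir17 had 27.3 and 29.0 normalized counts in wt and 11.4 and 15.8 in Top2β-null cells. Mir19a had 60.6 and 53.1 in wt and 31.1 and 32.7 in Top2β-null cells. The table does not separate reads of the host or precursor RNA from reads of the mature sequences printed above.

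The seeds of the cluster recur at other loci. In RefSeq, 5 other loci share the seed of miR-17-5p, 6 share that of miR-92a-3p, and 1 each shares those of miR-18a-5p and miR-19a-3p. Mir106b, Mir25 and Mir93, which form a cluster of their own, were counted in all libraries. Mir25, with the seed of miR-92a-3p, had 49.5 and 47.3 normalized counts in wt and 80.8 and 90.1 in Top2β-null cells (log2 fold change 0.82 ± 0.21 (SE), edgeR adjusted p = 0.0032). Mir106b, with the seed of miR-17-5p, had 5.05 and 11.6 in wt and 25.9 and 20.8 in Top2β-null cells (log2 fold change 1.46 ± 0.45 (SE), edgeR adjusted p = 0.0098). Mir93 did not pass (18.2 and 30.9 against 38.3 and 43.6 normalized counts, log2 fold change 0.73). Hairpins of the X-linked relatives Mir106a, Mir18b, Mir19b-2, Mir20b, Mir363 and Mir92-2 had 0 counts in all 4 libraries, which allows up to 3 counts in each by counting error alone. Mir32 did not pass (22.2 and 27.0 against 18.6 and 18.8 normalized counts), and Mir367, Mir6383 and Mir92b were too low to be tested.

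Of 6 MYC and E2F family transcription factors, members of which are known to drive the host gene, 3 rose, 2 fell and 1 did not pass, against 32.5% of all features each way (3, 1 and 2 genes with scaling to total counts). Myc had 18626 and 20147 normalized counts in wt and 18396 and 19299 in Top2β-null cells and did not pass. Mycl was called, from 24.2 and 28.0 to 253 and 228 normalized counts (log2 fold change 3.19), E2f1 rose by 0.20 on the log2 scale, Mycn had 0 in both wt libraries and 72.5 and 52.5 normalized counts in Top2β-null cells, and the log2 fold change of E2f2 was −0.86. Of 15 messenger RNAs described in textbooks as targets of the cluster, 4 rose, 9 fell and 2 did not pass by adjusted p, against 32.5% of all features each way, and 1 was called higher and 3 lower, against 5.27% and 4.97%. Their median log2 fold change was −0.13, and with scaling to total counts it was −0.064 with 5 genes up and 7 down. Thbs1, an inhibitor of vessel growth, rose from 35135 and 35490 to 194602 and 194540 normalized counts (log2 fold change 2.46). In the other direction, Ccn2, a matrix protein, had 34864 and 34692 normalized counts in wt and 7926 and 8216 in Top2β-null cells (log2 fold change −2.11), Zbtb4 had a log2 fold change of −1.48, and Cdkn1a, the p21 inhibitor of the cell cycle, had one of −1.47. Of the 10 genes of Drosha and Dicer processing, 2 rose and 8 fell, against 32.5% of all features each way, with a median of −0.31 (−0.24 with scaling to total counts). Dicer1 had a log2 fold change of −0.42 and Tarbp2, its partner, one of −0.83, whereas Dgcr8, the partner of Drosha, rose by 0.088 on the log2 scale.

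Pvt1 (chr15:62037986-62378096, plus strand), which lies 47612 bases downstream of Myc and is known to be amplified along with it in tumours, fell. In wt MEF cells 5793 and 5879 normalized counts were found for Pvt1, whereas Top2β-null cells gave 4822 and 4322. The groups did not overlap, and the Top2β-null replicates were farther apart than the wt replicates. The mean was 1.28-fold lower in Top2β-null MEF cells (log2 fold change −0.35 ± 0.041 (SE), edgeR adjusted p = 1.2e-06). Of 4 short RNAs annotated within it, 3 fell and 1 did not pass by adjusted p, against 32.5% of all features each way. Their log2 fold changes were −0.48 to −0.25. All but Gm27782 share bases with exons of Pvt1 on the same strand, so these reads may also be counted in Pvt1. Myc, its upstream neighbour, had a log2 fold change of −0.041 ± 0.034 (SE, edgeR adjusted p = 0.313).

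Firre (chrX:50555744-50635321, minus strand) was lower by a small amount that depended on 1 library and on the scaling. The wt libraries held 3061 and 3178 normalized counts of Firre, and the Top2β-null libraries 2903 and 2615. The higher Top2β-null value came close to the lower wt value. The mean was 1.13-fold lower (log2 fold change −0.18 ± 0.048 (SE), edgeR adjusted p = 0.0040). Without Top2β-null replicate 2 the log2 fold change was −0.10 (adjusted p = 0.0903), and it was −0.11 (adjusted p = 0.0507) when libraries were scaled to their total counts. Of 7 partners of Firre, 3 rose, 2 fell and 2 did not pass by adjusted p, against 32.5% of all features each way, and 0 were called. The median was 0.023, and with scaling to total counts it was 0.093 with 4 genes up and 2 down. Hnrnpu, which anchors Firre in the nucleus, had 83961 and 85843 normalized counts in wt and 98813 and 95041 in Top2β-null cells (log2 fold change 0.19). Ctcf, the insulator protein, rose by 0.41 on the log2 scale, while the cohesin subunit Rad21 and the factor Yy1 had log2 fold changes of −0.42 and −0.22.

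**Figure D4:**
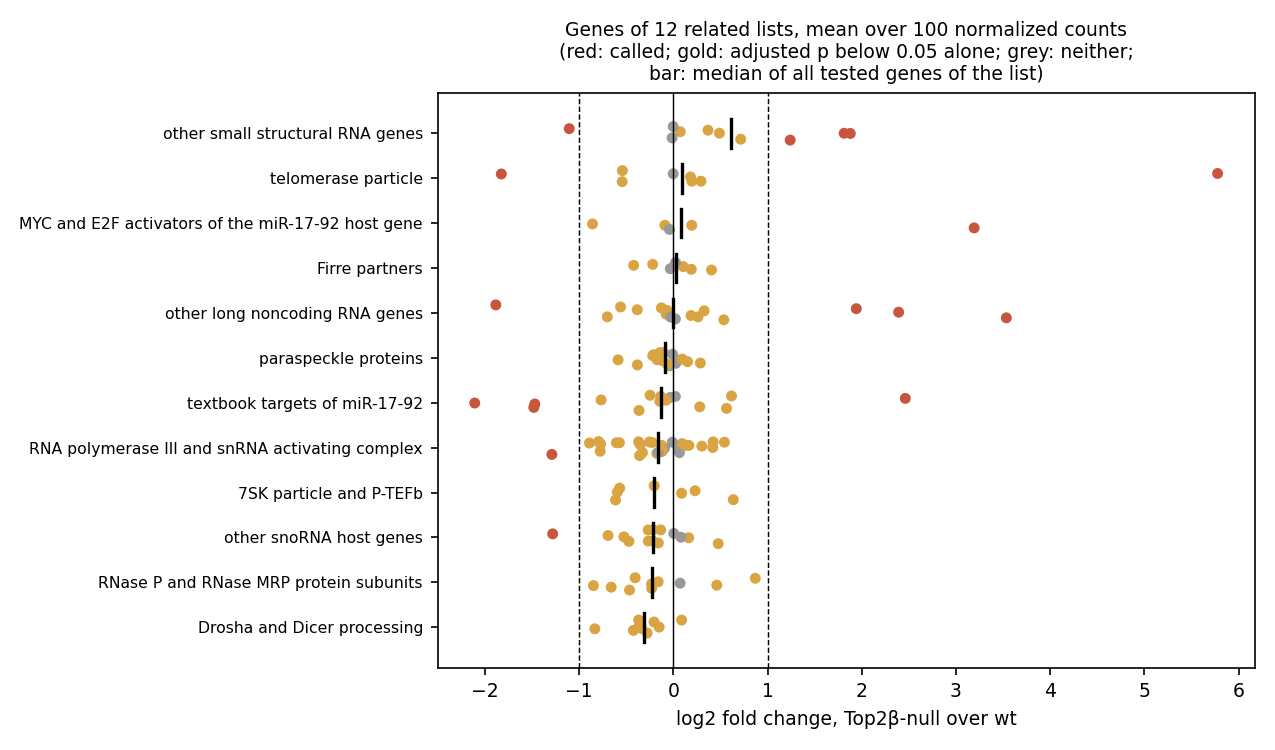
Fitted log2 fold change, Top2β-null over wt, of the tested genes with a mean over 100 normalized counts in each related list, 1 point per gene, with a bar at the median of all tested genes of the list. Red points are called, gold points have an adjusted p below 0.05 alone and grey points have neither. Medians lie between −0.31 (Drosha and Dicer processing) and 0.61 (other small structural RNA genes), and Tert is the point farthest to the right, at 5.78.

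**Figure D5:**
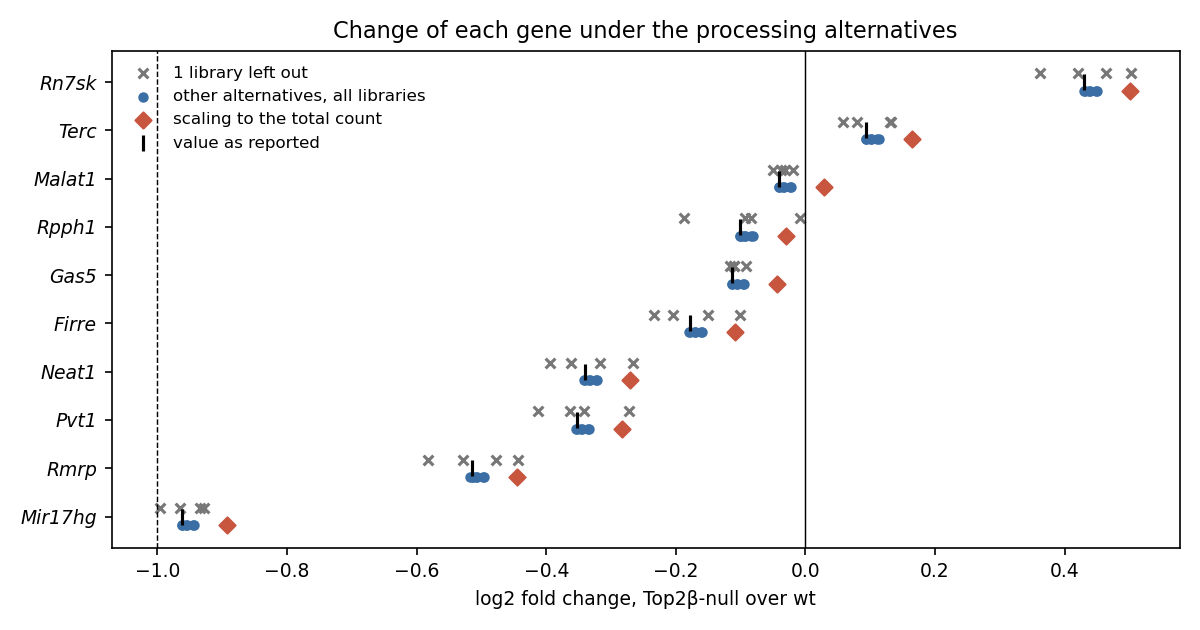
Log2 fold change of each of the 10 genes as reported (black bar), with 1 library left out (crosses), with libraries scaled to their total counts (diamonds) and in the other alternatives (dots). Scaling to the total count moves all 10 genes upwards and takes Malat1 from −0.041 to 0.029, while Mir17hg stays above −1.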

How the data were processed

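The authors trimmed reads with Trim Galore! 0.4.0, aligned them to mm10 (GRCm38) with STAR 2.5.2, keeping reads that align many times, sorted them by name with samtools 1.3.1 and counted them with TEtranscripts 1.5.1 over Gencode M9 genes and RepeatMasker families. What they deposited are raw counts, 1 whole number for each gene or repeat family in each library. The mode of TEtranscripts and its strand setting are not given in the sources used here. The kit was a stranded total RNA kit with ribosomal depletion, which captures short RNAs such as microRNAs poorly.

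Genes (25085) and repeat families (1481) were tested if 2 or more libraries had 10 or more of these counts. edgeR 4.0.16 in R 4.3.3 gave TMM factors over genes and repeats, a quasi-likelihood test with genotype as the only term, and Benjamini-Hochberg adjusted p-values over 26566 features. Total counts per library were 142460700 and 149647278 (wt) and 133116830 and 138182262 (Top2β-null). The spread between replicates exceeded counting error, with a chi-square of 3.65 (wt) and 5.07 (Top2β-null) for each degree of freedom. Symbols and positions come from GENCODE M21, which held 54409 of the 54842 identifiers. The test was checked on simulated data drawn from these libraries.

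The members and the related gene lists were chosen with earlier results of these data known. Within each list, the text names the 2 genes of largest change in each direction among those with an adjusted p below 0.05 and a mean over 100, and Myc, Cdkn1a, the hairpins and other genes that share bases with or lie beside a member were added because of the member they belong to or after their values were seen. Some genes that these rules would name are not reported here. Alternatives were DESeq2 1.42.0, other scalings and count filters, a replicate block, summing of genes that share reads, and leaving out each library.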

Additional observations from a re-analysis of the deposited data

How the results depend on the processing

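With all libraries kept, 67 of the values of single genes kept their direction and their side of the threshold. The 5 others follow. When libraries were scaled to their total counts, the median of all features moved from 0.0027 to 0.072, and 2 of the 10 genes were higher by adjusted p alone (Rn7sk and Terc, 0.16) in place of 1, 4 in place of 6 were lower, Gas5 (−0.043) and Firre (−0.11) no longer passed, and Malat1 reversed to 0.029 without passing. Without a filter on low counts Rpph1 passed (−0.083, adjusted p = 0.0097), which made 7 genes lower. Calls with a fold cut-off stayed at 0 in each direction in every alternative that kept all libraries and had its calls counted. Summing of genes that share reads was followed for Rmrp and Rpph1 alone. With 1 library left out, the log2 fold change of Rpph1 ranged from −0.19 to −0.0087 and that of Firre from −0.23 to −0.10. In those fits the lone library is assumed to vary like the other group. With all libraries, the related lists together had 9 genes called higher and 8 called lower, where 5.27% and 4.97% of all features were called. With at least 100 counts required in every library, 6 genes of these lists were called higher and 8 lower. Under that filter 825 and 927 of all 16443 features were called. Shares of gene counts alone were higher than shares of all counts by construction, and levels of Gas5, Pvt1 and Firre per kilobase were higher with the longest transcript as the length, which is shorter than the summed exons. With the replicate number as a block, the log2 fold change of Mir17hg was −0.96 and no call changed among the 10 genes. Over all features, 1400 were then called higher and 1321 lower, against 1399 and 1320 without the block. Samples with the same number did not deviate together (correlation 0.0148 over 17953 features), so the numbers were not taken as pairs. Depth is no limit for the abundant RNAs, but the hairpins of Mir17hg rest on at most 60 counts in a library.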

Other observations

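Other small structural RNA genes had the highest median of the related lists, 0.61 over 15 tested genes, of which 10 rose, 1 fell and 4 did not pass by edgeR's adjusted p, where 32.5% of all features rose and 32.5% fell (11, 1 and 3 genes and a median of 0.68 with scaling to total counts). Rnu5g, a copy of the U5 spliceosomal RNA, had 182 and 158 normalized counts in wt and 579 and 670 in Top2β-null MEF cells (log2 fold change 1.88). Rnu1a1 and Rnu2-10, copies of U1 and U2, had log2 fold changes of 1.81 and 1.24. Such genes exist in many near-identical copies, so that their counts are uncertain. Vaultrc5, the vault RNA, had 558 and 705 normalized counts in wt and 278 and 310 in Top2β-null MEF cells (log2 fold change −1.10). Rn7s1 and Rn7s2, the RNAs of the signal recognition particle, had log2 fold changes of 0.074 and −0.0012.

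Of 16 other long noncoding RNA genes tested, 7 rose, 7 fell and 2 did not pass by edgeR's adjusted p, against 32.5% of all features each way, and 3 were called higher and 1 lower, against 5.27% and 4.97%. With scaling to total counts 8 rose, 4 fell and 4 did not pass, and the median moved from −0.0027 to 0.067. Fendrr, a regulator of mesoderm development, had 70.7 and 78.2 normalized counts in wt and 894 and 836 in Top2β-null MEF cells (log2 fold change 3.53). Dnm3os, the host of miR-199a and miR-214, rose from 1107 and 1140 to 5918 and 5875 (log2 fold change 2.39), and Mir99ahg from 261 and 236 to 977 and 933 (log2 fold change 1.94). Ftx, an X-linked RNA near Xist, fell from 3135 and 3085 to 879 and 807 (log2 fold change −1.88). Miat and Hotair were too low to be tested.

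Protein-coding neighbours of the 10 genes did not all move with them. Frmd8, which lies 4224 bases from Neat1, rose by 0.38 on the log2 scale. Parp2, which starts 74 bases from Rpph1 on the opposite strand, had 3587 and 3602 normalized counts in wt and 3486 and 3443 in Top2β-null MEF cells and did not pass (log2 fold change −0.053). Gsta4, 7141 bases from Rn7sk, was called higher, from 181 and 182 to 1011 and 910 (log2 fold change 2.41), while Ick on the other side had a log2 fold change of −0.31. Zbtb37, which overlaps the start of Gas5 on the opposite strand, rose by 0.38 on the log2 scale. The nearest protein-coding genes of Firre, Olfr1324 and Stk26, had at most 3 counts in a library.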
